A study of Mus musculus with 12 samples.

Results

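CatSper is the calcium channel of the sperm tail, and its subunits were measured here in a pair of mouse osteosarcoma lines. The genes are the pore-forming subunits Catsper1, Catsper2, Catsper3 and Catsper4 and the accessory subunits Catsperb, Catsperd and Catsperz. They were taken as all non-control probes whose accession belongs to one of these genes, which gave 9 probes of 7 genes among 39429 probes, of which 26581 could be named to 20144 genes. The set was chosen by the measured signal of Catsperz over the 4 groups, which was lost in late passage Dunn cells alone, so the Catsperz values are given as a description without a test.

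Dunn is a mouse osteosarcoma line of low metastatic potential, labelled osteoblastic, and LM8 is its derivative selected in mice for high metastatic potential. Dunn cells were at passage 25 (early) or 86 (late) and LM8 cells at passage 24 (early) or 91 (late), with 3 arrays in each of the 4 groups. No group carried a drug or an added gene, and both lines grew in the same serum-supplemented DMEM/F12 medium until RNA was taken from sub-confluent cells. The late cells descended from the early ones, both were thawed from frozen stocks before RNA was taken, and each line at each passage is a single culture history. Nothing states that the 3 arrays of a group came from separate cultures, so that the p-values measure the spread between these samples, which may be technical.

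In sperm, the pore-forming subunits each supply one repeat of a calcium-selective, alkalinisation-gated pore, and the accessory subunits form the extracellular canopy and the cytoplasmic parts of the complex. Catsperz is a small cytoplasmic subunit that binds Efcab9, a calcium sensor of the complex, and helps to keep the channels in continuous rows along the tail. The channel is needed for hyperactivated swimming, and its genes are known for expression in testis.

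The upstream windows of 3 genes are shown because they belong to the member that was lost (Catsperz), to the member with signal on every array (Catsper2) and to a member near the background (Catsper4). They are the 250 bases before the transcription start in RefSeq on GRCm38.p6, read 5′ to 3′ on the strand of the gene, with CG dinucleotides in capitals. The Catsperz window lies at chr19:6925381-6925630, the Catsper2 window at chr2:121413793-121414042 and the Catsper4 window at chr4:134227384-134227633, all on the minus strand.
Catsperz: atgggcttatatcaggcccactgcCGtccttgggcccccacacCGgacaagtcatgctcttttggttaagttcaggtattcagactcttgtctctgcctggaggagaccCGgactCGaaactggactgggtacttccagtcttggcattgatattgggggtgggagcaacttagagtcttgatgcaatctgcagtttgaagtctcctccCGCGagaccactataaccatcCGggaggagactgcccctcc
Catsper2: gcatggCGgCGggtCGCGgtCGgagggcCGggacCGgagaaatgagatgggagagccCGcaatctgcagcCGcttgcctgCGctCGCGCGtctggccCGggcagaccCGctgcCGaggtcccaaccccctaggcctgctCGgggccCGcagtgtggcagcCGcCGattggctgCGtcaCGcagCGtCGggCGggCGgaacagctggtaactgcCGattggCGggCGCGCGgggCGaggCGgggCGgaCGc
Catsper4: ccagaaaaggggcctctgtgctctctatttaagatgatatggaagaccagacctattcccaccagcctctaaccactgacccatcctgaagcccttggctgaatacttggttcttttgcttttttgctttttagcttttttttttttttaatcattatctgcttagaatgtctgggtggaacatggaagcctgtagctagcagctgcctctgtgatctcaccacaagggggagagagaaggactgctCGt
The Catsperz window holds 7 CG dinucleotides, against a median of 6 over 32851 such windows. The Catsper2 window holds 35, a number reached by 3.0% of all windows, and the Catsper4 window holds 1. Of the others, Catsperd has 1 window with 25 and 1 with 11, Catsper3 has 2 and Catsperb has 1, so that 6 of the genes matched the table and Catsper1 is named only. A search of both strands found the letters CCAAT in the Catsperz, Catsper2 and Catsperb windows (33.85% of all windows hold them), and neither TATAAA (12.37% of all windows) nor the cyclic AMP response motif TGACGTCA (1.55%) in any of them. None of the 3 motifs contains another, and a match is a run of letters, not a binding site.

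The arrays differed in brightness, and 1 of them stood apart. The 75th percentile of the signal ran from 287 to 1903 units, and the share of probes that the scanner software marked as well above background ran from 39.1% to 59.7%. Values below are therefore log2 signals relative to the 75th percentile of the same array. On late Dunn replicate 1, 3156 probes were well above background that were so on no other array, 65.8% of all 4799 probes with signal on a single array, and this array correlated with its replicates at 0.919 and 0.923. Late Dunn results are thus given with and without it. The 8 osteoblast markers with a probe, among them Runx2, Sp7, Col1a1 and Ibsp, were well above background on every array on which they were not left out as outliers. Of 4 epithelial markers Krt8 and Cdh1 were so on 0 arrays, Krt18 on 1 and Epcam on 2. Of 10 germ cell genes Ddx4, Dazl, Mael and Dmc1 were so on 0 arrays, and the other 6 on 1 to 4.

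Catsperz, on chromosome 19, was bright in early Dunn cells and in both LM8 groups and at the background in late Dunn cells. Its processed signal was 2490, 3032 and 2017 in the 3 early Dunn arrays and 12.6, 13.5 and 11.6 in the late Dunn arrays. It was 22005, 26207 and 20616 in early LM8 arrays and 19082, 27061 and 17431 in late LM8 arrays. The probe was well above background on 9 of 12 arrays, with the late Dunn arrays as the exceptions, and it was saturated on none. No array of one line overlapped with any array of the other, and the early and late Dunn arrays did not overlap.

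Relative to the 75th percentile, Catsperz stood at 2.61 ± 0.25 in early Dunn, -5.98 ± 0.15 in late Dunn, 4.34 ± 0.27 in early LM8 and 3.85 ± 0.18 in late LM8 cells (log2 level, mean ± SD, n = 3 each). The difference of late from early Dunn cells was -8.59 (log2, SE 0.30). Because no late Dunn signal was well above background, the late level is given as 271-fold lower, set against a floor. On each late Dunn array the floor is the larger of the Catsperz value and the lowest signal that was well above background. This is not a strict lower bound, since Akap3 reached a signal of 83.5 in late Dunn cells without being well above background. Within the 3 slides, each of which held 1 array of every group, the difference was -8.60, -8.49 and -8.70. It was -8.63 without late Dunn replicate 1, the array that stood apart, and after a background correction that adds an offset of 50 units it was -5.21.

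In LM8 cells the same probe moved little with passage. The late level differed from the early one by -0.50 (log2, SE 0.22), and by -0.59, -0.49 and -0.42 within the slides. The scaled LM8 levels ran from 4.09 to 4.62 early and from 3.68 to 4.03 late, without overlap, while the signals before scaling did overlap and the difference without scaling was -0.13. The LM8 level was 3.33-fold that of Dunn cells at early passage (log2 difference 1.73, SE 0.32), and 3.20 on the log2 scale where the arrays were not scaled. At late passage it was 638-fold that of Dunn cells with the same floor, and the measured log2 difference was 9.83, or 9.87 without late Dunn replicate 1. The order of the levels was thus early LM8, late LM8, early Dunn and late Dunn, of which the LM8 groups lay closest.

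**Figure D1:**
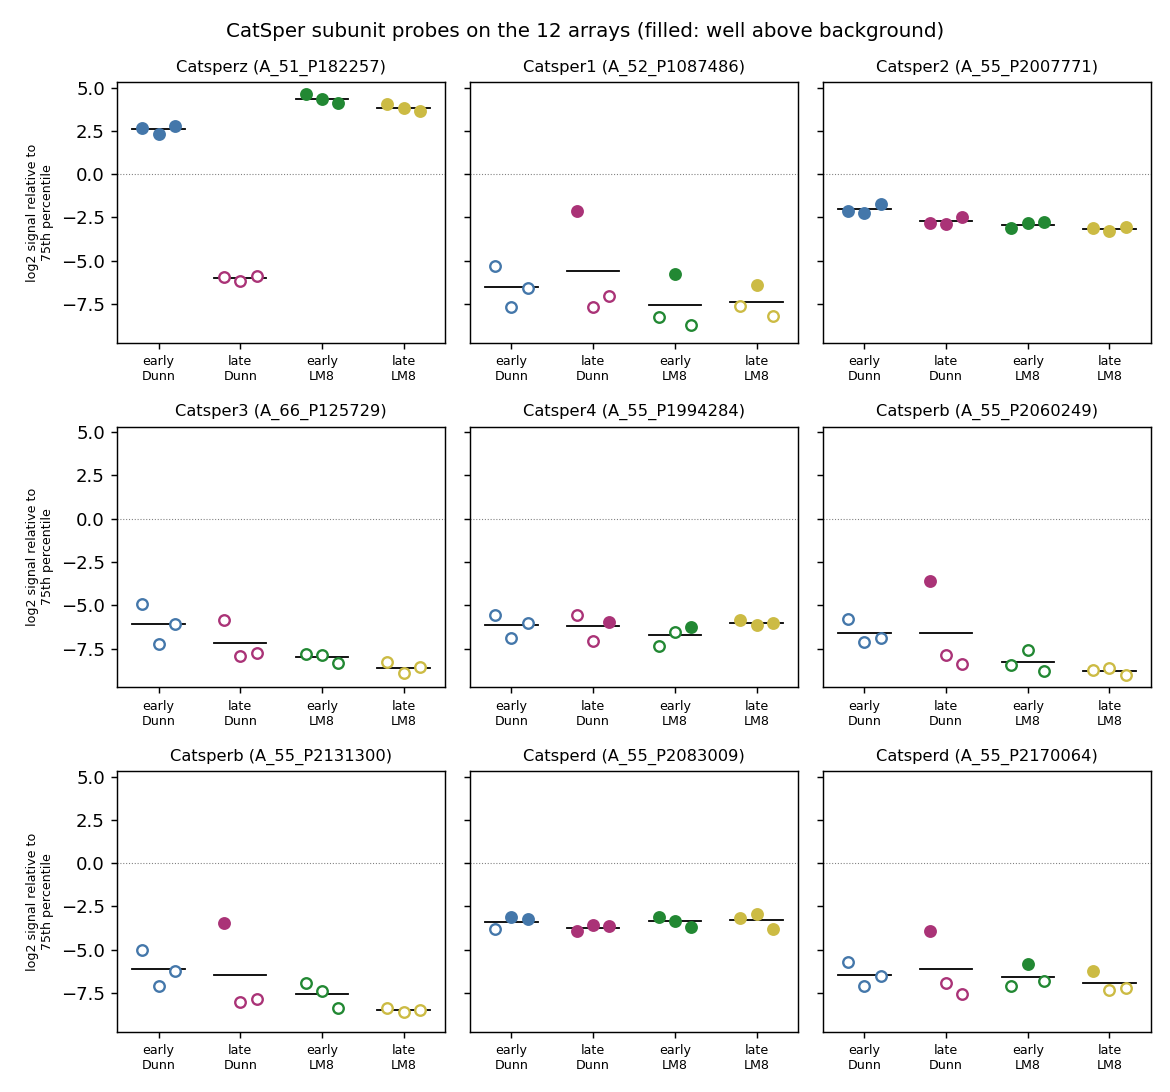
Each panel plots the log2 signal of 1 CatSper probe relative to the 75th percentile of its array for the 3 arrays of each group, left to right by replicate number, with the group mean as a line. Filled points are well above background and open points are not. Catsperz drops from 2.61 to -5.98 in Dunn cells and stays near 4 in LM8 cells, Catsper2 and 1 Catsperd probe keep filled points in all groups, and the other panels hold mostly open points.

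Of the pore-forming subunits, Catsper2 did not show this pattern. Catsper1, Catsper3 and Catsper4 were well above background on 0 early Dunn arrays, so that a loss could not be seen for them. Catsper2, on chromosome 2, was the only pore-forming subunit well above background on all 12 arrays. Its signal was 89.4, 125 and 87.2 in early Dunn, 106.7, 132 and 122 in late Dunn, 102, 189 and 175 in early LM8 and 136, 194 and 165 in late LM8 arrays. Over all 12 arrays it thus ran from 87.2 to 194, without a group at the background.

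Scaled to the array, Catsper2 was highest in early Dunn cells. The log2 level was -2.03 ± 0.28 in early Dunn, -2.73 ± 0.20 in late Dunn, -2.91 ± 0.20 in early LM8 and -3.15 ± 0.13 in late LM8 cells (mean ± SD, n = 3 each). Late Dunn differed from early Dunn by -0.70 (SE 0.32, limma adjusted p = 0.782), although the arrays of the groups did not overlap. Within the slides this difference was -0.71, -0.60 and -0.77, and with the slide as a block the limma adjusted p was 0.248. Late LM8 differed from early LM8 by -0.24 (adjusted p = 0.486). LM8 differed from Dunn by -0.87 at early passage (SE 0.31, adjusted p = 0.0823) and by -0.42 at late passage (adjusted p = 0.283), and all of these Catsper2 differences turned positive without scaling (0.27, 0.12, 0.60 and 0.45). The early passage difference passed the threshold in 3 alternatives (adjusted p = 0.0361 after quantile normalization, 0.044 among probes with signal and 0.0412 in 1 fit over 12 arrays). The interaction of line and passage, which asks whether the passage change differed between the lines, was 0.46 (adjusted p = 1). Without late Dunn replicate 1 the Catsper2 difference was -0.65 for passage in Dunn cells (adjusted p = 0.323) and -0.47 between the lines at late passage (adjusted p = 0.202).

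Catsper1, which lies on chromosome 19 like Catsperz, was well above background on 3 arrays, late Dunn replicate 1 (signal 173), early LM8 replicate 2 (23.8) and late LM8 replicate 2 (22.9). The other 9 arrays ran from 2.89 to 9.94. Most of its spread in late Dunn cells therefore came from the array that stood apart. Catsper3, on chromosome 13, was well above background on none of the 12 arrays, with signals from 3.23 to 13.1.

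Catsper4, on chromosome 4, was near the background, and its signal before scaling was highest in late LM8 cells. After scaling the level was -6.16 ± 0.68 in early Dunn, -6.19 ± 0.78 in late Dunn, -6.72 ± 0.59 in early LM8 and -6.01 ± 0.13 in late LM8 cells (log2, mean ± SD, n = 3 each). The scaled late LM8 arrays overlapped with both Dunn groups. All 3 late LM8 arrays were well above background (19.8, 27.2 and 20.8), as were late Dunn replicate 3 (11.1) and early LM8 replicate 3 (16.01). The LM8 arrays did not overlap between passages, with 5.38, 14.2 and 16.01 at early passage. The scaled late minus early difference in LM8 cells was 0.70 (log2, SE 0.32, limma adjusted p = 0.297) and did not pass the test.

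Among the accessory subunits, Catsperd on chromosome 17 had signal in both lines. Its brighter probe was well above background on 11 of 12 arrays, with early Dunn replicate 1 as the exception. The signal was 27.7, 69.5 and 30.8 in early Dunn, 49.5, 79.8 and 55.3 in late Dunn, 103, 132 and 95.1 in early LM8 and 132, 246 and 96.9 in late LM8 arrays. Before scaling, every LM8 array lay above every Dunn array.

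After scaling, this separation of the lines was gone. The Catsperd level was -3.38 ± 0.37, -3.72 ± 0.19, -3.36 ± 0.28 and -3.31 ± 0.45 in early Dunn, late Dunn, early LM8 and late LM8 cells (log2, mean ± SD, n = 3 each), and the groups overlapped between lines. The differences were -0.34 for passage in Dunn cells (limma adjusted p = 0.803), 0.06 for passage in LM8 cells (0.922), 0.02 between lines at early passage (0.975) and 0.41 at late passage (0.358). The passage difference in Dunn cells was 0.63 without scaling and -0.23 without late Dunn replicate 1, and the late difference between the lines was then 0.31. The second Catsperd probe disagreed in brightness, since it was well above background on 3 arrays, late Dunn replicate 1 (50.6), early LM8 replicate 2 (23.5) and late LM8 replicate 1 (15.7).

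Catsperb, on chromosome 12, had signal on the array that stood apart and on no other. Both of its probes were well above background on late Dunn replicate 1 (62.4 and 69.5), and the other 11 arrays ran from 2.03 to 6.86 for the one and from 2.99 to 12 for the other. Of the 9 CatSper probes, 6 (66.7%) were well above background on late Dunn replicate 1, where 59.7% of all probes were. The other arrays had 2 to 5 of the 9, where 39.1% to 59.5% of all probes were. The 6 of 9 thus lay near the share of all probes on that array. Whether what set this array apart has a part in the Catsper1, Catsperb and second Catsperd values was not tested.

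None of the 8 probes of the other subunits passed either call rule with passage. Only Catsper2 and the brighter Catsperd probe had signal on any early Dunn array, so that a loss in Dunn cells could not be seen for the rest. Late versus early Dunn cells gave 0 probes over 2-fold at an unadjusted p under 0.05 (3.98% of all probes) and 0 at an adjusted p under 0.05 by limma (0.00254% of all probes), with 0 at an unadjusted p under 0.05 and 0 by the methods' t-test. Late versus early LM8 cells likewise gave 0 (7.23% of all probes by the fold rule and 2.19% by the adjusted p), with 1 at an unadjusted p under 0.05 and 0 by the methods' t-test. The median difference of the 8 probes was -0.18 in Dunn and -0.30 in LM8 cells, beside medians of -0.33 and -0.20 over all probes. With the slide as a block, the Dunn count was 1 (Catsper3, where 15.5% of all probes were called), and without late Dunn replicate 1 it was 2 (both Catsperb probes, where 14% were), all on probes with no array above background in the groups that remained.

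Between the lines, 2 of the 8 probes were called at early passage by the fold rule, where 38.6% of all probes were. They were Catsper3 (-1.92, SE 0.59) and 1 Catsperb probe (-1.68, SE 0.50), neither of which was well above background on any array of either group, so that no fold is given. By adjusted p 0 of 8 were called by limma (3.76% of all probes), with 3 at an unadjusted p under 0.05 and 0 by the methods' t-test after adjustment. At late passage 0 of 8 were called (12.8% and 2.91% of all probes by the same rules), with 0 at an unadjusted p under 0.05 and 0 by the methods' t-test. The interaction of line and passage gave 0 of 8 (4.48% and 0.434% of all probes), again with 0 at an unadjusted p under 0.05 by limma. The medians of the 8 probes were -0.98 at early and -1.10 at late passage, beside -0.85 and -0.66 over all probes.

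The rest of the channel complex was mostly at the background as well. Of 9 further genes of the complex 7 had a probe, and Efcab9, the partner of Catsperz in sperm, was well above background on 11 arrays. Its log2 level was -4.19 ± 0.11 in early Dunn, -3.70 ± 0.56 in late Dunn, -4.95 ± 0.11 in early LM8 and -4.98 ± 0.24 in late LM8 cells (mean ± SD, n = 3 each). The gene thus kept its signal on all 3 late Dunn arrays, in which Catsperz had none. Tmem262 was well above background on 4 arrays, all of LM8, and Catsperg2 on 2, both late LM8. Catsperg1, Catspere2, Slco6c1 and C2cd6 were so on none.

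By the fold rule 0 of these 7 genes changed with passage in either line, with 0 at an unadjusted p under 0.05 by limma in both. In Dunn cells the count was 3 with the slide as a block (Catsperg1, Catspere2 and Tmem262, all lower late, where 15.5% of all probes were called) and 3 without late Dunn replicate 1 (Catsperg1, Catsperg2 and Tmem262, where 14% were). None of these 4 genes was well above background on a Dunn array. Between the lines, 4 of 7 were lower in LM8 at early passage by the fold rule, where 38.6% of all probes were called, and each of them was without signal on any array. At late passage it was 1 of 7, where 12.8% of all probes were called, namely Efcab9, which was lower in LM8 (-1.28, SE 0.35, limma adjusted p = 0.145) and not called without late Dunn replicate 1, where Tmem262 was called instead. By adjusted p 0 of the 7 were called by limma in any of these comparisons, with 6 at an unadjusted p under 0.05 at early and 1 at late passage. The share of all probes at that p alone is not given here. At early passage 79.5% of all probes were lower in LM8, with a median of -0.85, so that the 6 are not read as a result about the complex.

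Other genes of sperm ion transport had signal in part, and 1 of 12 was called by the fold rule with passage in each line, where 3.98% (Dunn) and 7.23% (LM8) of all probes were. In Dunn cells it was Atp1a4, the sodium pump subunit of sperm, which was lower late (-1.31, SE 0.45, limma adjusted p = 0.782) and well above background on all 12 arrays. In LM8 cells it was Slc9b1, a sodium-proton exchanger of the sperm tail, which was higher late (3.24, SE 0.66, adjusted p = 0.0711). Between the lines by adjusted p, Atp1a4 was lower in LM8 at early (-3.40, SE 0.37, adjusted p = 0.00638) and late passage (-2.39, SE 0.40, adjusted p = 0.0486), and Hvcn1, the proton channel, was higher in LM8 at early passage (2.21, SE 0.32, adjusted p = 0.0182). These were 1 higher and 1 lower of 12 at early and 1 lower at late passage, where 3.76% and 2.91% of all probes were called, and with the slide as a block no call was left (adjusted p = 0.0538 and 0.092 for Atp1a4 and 0.0774 for Hvcn1). For passage in Dunn cells with the slide as a block, the fold rule called Atp1a4 and Slc9c1, where 15.5% of all probes were called. Without late Dunn replicate 1 it called Atp1a4, Lrrc52 and Plcz1, and the share of all probes for that setting is given above. Of Slc9c1, Lrrc52 and Plcz1, none was well above background on more than 1 array.

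Of 16 genes of spermatids and sperm structure, 0 were called by either rule with passage in either line by limma, with 0 at an unadjusted p under 0.05 in Dunn and 2 in LM8 cells. Over all probes these rules called 3.98% and 0.00254% in Dunn and 7.23% and 2.19% in LM8 cells, so that counts near 0 lie near the share of all probes. In Dunn cells the fold rule called 1 of the 16 with the slide as a block (Tssk6), where 15.5% of all probes were called. It called 4 without late Dunn replicate 1 (Akap3, Akap4, Zpbp and Gapdhs), and the share of all probes for that setting is given above. All were lower late, with Tssk6 well above background on 2 arrays, Akap3 on 0, and Akap4 and Gapdhs on 1 each. The protamine Prm1, the acrosomal protease Acr and the zona binding protein Zpbp were well above background on 11 arrays each, and Acr kept signals of 32.7 to 70.1 on the late Dunn arrays. Of 10 germ cell and meiosis genes, 0 were called in Dunn cells by limma, with 0 at an unadjusted p under 0.05. The fold rule called 2 with the slide as a block (Stra8 and Dmc1) and 2 without late Dunn replicate 1 (Stra8 and Hormad1). All were lower late and had signal on at most 1 array, and the shares of all probes under these settings are those given above. The synaptonemal complex gene Sycp3 (1.51, SE 0.52, adjusted p = 0.272) and the meiotic chromosome gene Hormad1 (1.01, SE 0.30, adjusted p = 0.209) were called higher in late LM8 cells by the fold rule, with signal on 2 and 1 of the 12 arrays.

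Of 12 other calcium channel genes, which are voltage-gated or two-pore channels, 0 were called with passage in Dunn cells by either rule by limma. Over all probes these rules called 3.98% and 0.00254%, and 0 of the 12 had an unadjusted p under 0.05. With the slide as a block the fold rule called 2 (Cacna1b and Cacna1e), where 15.5% of all probes were called. Both were lower late and well above background on 0 arrays. Without late Dunn replicate 1 it called 2 (Cacna1d and Cacna1i, both lower late), and the share of all probes for that setting is given above. Cacna1d was well above background on 1 array and Cacna1i on 11. Cacna1a, Cacna1h and Tpcn1 were well above background on all 12 arrays. In LM8 cells Cacna1a (-1.23, SE 0.35, limma adjusted p = 0.196) and Cacna1d (-1.65, SE 0.56, adjusted p = 0.268) were lower late by the fold rule and not by adjusted p. The fold rule called 7.23% of all probes there, and Cacna1d had signal on 1 array.

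**Figure D2:**
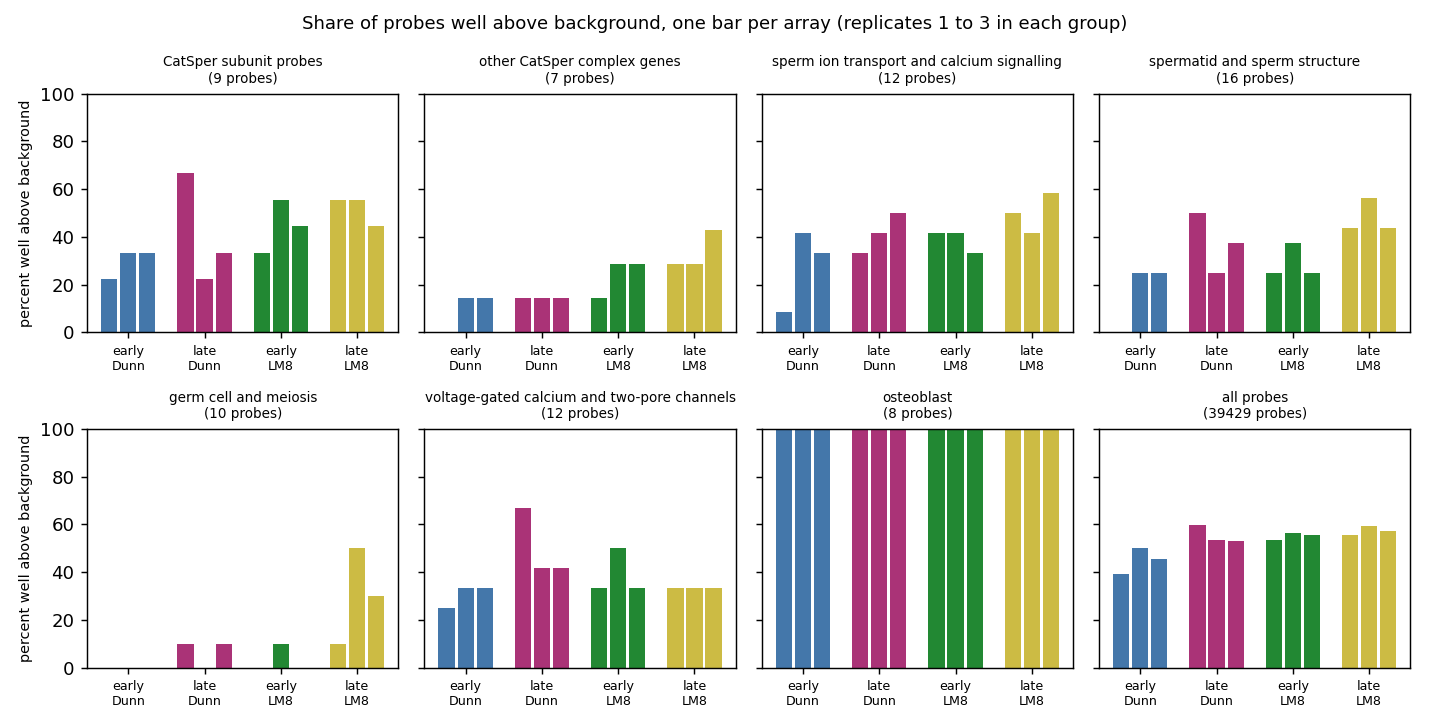
Each bar gives, for 1 array, the percent of probes not left out as outliers that were well above background, for the CatSper probes, related gene lists, the osteoblast markers and all probes. The bars of a group are replicates 1 to 3. On late Dunn replicate 1 the CatSper bar reaches 6 of 9 probes, beside 59.7% of all probes on that array. The osteoblast bars are at the top on every array.

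Markers of other cell types that a culture could hold had signal in part. Of 4 epithelial markers 0 to 2 were above background on an array, the 2 being on late Dunn replicate 1, and of 4 leukocyte markers 2 to 3 were, among which Csf1r and Itgam were on all 12 arrays and Ptprc and Adgre1 on 2. Of 4 endothelial markers 1 to 3 were, the 3 being on late Dunn replicate 1, with Kdr on all 12 arrays, Pecam1 on 7, Tek on 1 and Cdh5 on 0. The sum of the 4 leukocyte markers relative to the 75th percentile ran from 7.23 to 13.9 in early Dunn and from 5.43 to 10.9 in late Dunn arrays, with overlap. It ran from 4.66 to 6.94 in early LM8 and from 4.67 to 6.65 in late LM8 arrays. This sum is mostly Itgam (mean log2 level 3.18 in early Dunn, beside -2.59 for Csf1r), and is not a measure of leukocyte content. The epithelial sum was at most 0.502 on any array. The endothelial sum, mostly Kdr (0.42 in early Dunn, beside -5.47 for Pecam1), ran from 0.574 to 1.75. In whole cultures, fewer cells with Catsperz RNA and less of it per cell cannot be told apart.

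The genes beside Catsperz on chromosome 19 kept their signal in late Dunn cells. The 5 protein-coding genes with a probe on either side are, in order, Rps6ka4, Ccdc88b, Prdx5, Trmt112 and Esrra and then Kcnk4, Gpr137, Bad, Plcb3 and Ppp1r14b, and 9 of the 10 were well above background on all 12 arrays. The exception was Ccdc88b, with no early Dunn array above background (signals 10.1 to 12.8) and all 3 late Dunn arrays above it (19.4 to 101). Their differences of late from early Dunn cells ran from -1.14 to 0.62 with a median of -0.50, beside -0.33 over all probes.

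By the fold rule 1 of the 10 neighbours, where 3.98% of all probes were called, was lower in late Dunn cells, and it was the lysosomal membrane protein gene Gpr137 (-1.14, SE 0.33, limma adjusted p = 0.744). Its signal was 1460 to 2567 early and 1241 to 1886 late, and without scaling it was not called. By adjusted p 0 of 10 were called by limma, and 0 by the methods' t-test after adjustment. An unadjusted p under 0.05 by limma was found for 4 (Rps6ka4, Prdx5, Gpr137 and Bad), all lower late after scaling. Of all probes 69.7% were lower late, and the share of all probes at that p alone is not given here. In LM8 cells the differences ran from -0.22 to 0.16, and 0 of 10 were called by limma by either rule, with 0 at an unadjusted p under 0.05. For the interaction of line and passage the fold rule called 1 of 10, where 4.48% of all probes were called. It was Gpr137 (1.18, SE 0.33, limma adjusted p = 0.328). By adjusted p 0 of 10 were called, with 2 at an unadjusted p under 0.05. Leaving out 1 array gave counts from 0 to 2 in Dunn cells, with 0 without late Dunn replicate 2, without early Dunn replicate 3 or without late Dunn replicate 3, and 2 without late Dunn replicate 1 or without early Dunn replicate 2.

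Kcnk4, the potassium channel gene next to Catsperz, carries the name Catsperz as a synonym in the annotation. The Catsperz probe was matched to its gene by accession, its sequence was not used here, and which transcripts it reads was not checked. Its brighter probe had signals of 41.6 to 85.4 in early Dunn and 85.7 to 216 in late Dunn arrays, with a scaled difference of 0.20 (log2, SE 0.51, limma adjusted p = 0.971), which was -0.49 after quantile normalization and -0.50 with normexp background correction. Its second probe was well above background on late Dunn replicate 1 alone (120). Neither probe lost a signal that it had in early Dunn cells. On the other side, Esrra, a nuclear receptor gene, had a low value on early Dunn replicate 1 (64.2, against 987 and 2031 on the other early Dunn arrays), and its difference was 0.52 (SE 1.26), or -0.94 without that array.

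**Figure D3:**
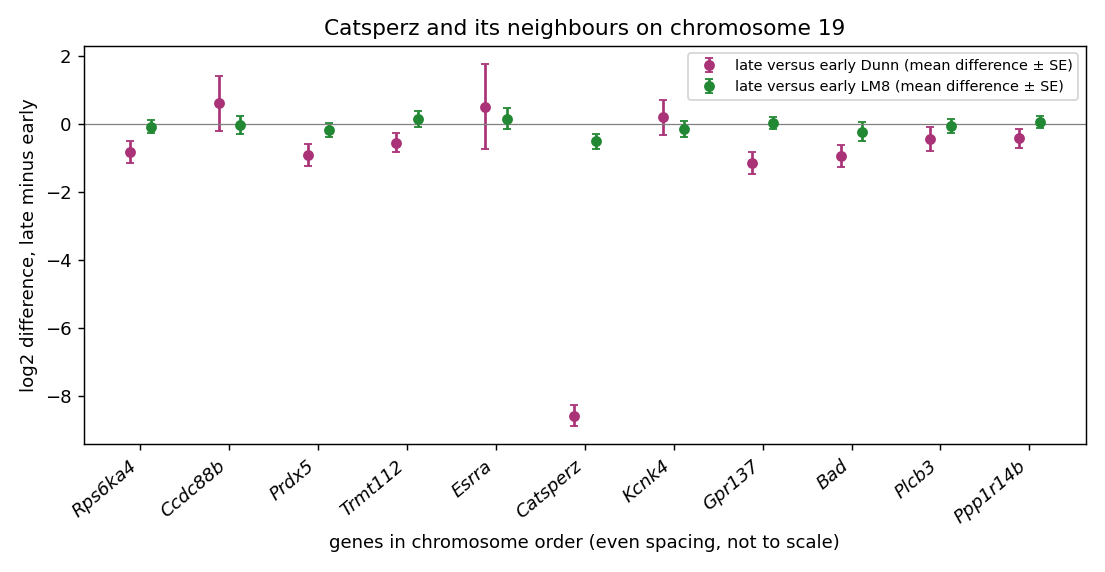
The log2 difference of late minus early cells is plotted for Catsperz and 5 genes on either side in chromosome order, not to scale, as the mean difference with its SE over 3 arrays against 3. The Dunn points of the neighbours lie between -1.14 and 0.62 and that of Catsperz at -8.59, while the LM8 points of the neighbours lie between -0.22 and 0.16.

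The pattern of Catsperz is what the genes here were chosen by, so that the counts of probes that share it are a description. Signal on all 9 arrays of the other groups and on none of the late Dunn arrays was found for 12 probes, 0.0304% of all, of which 11 were named to 10 genes. With another group as the one without signal, the same count was 130 for early Dunn, 10 for early LM8 and 13 for late LM8. The drop from every other group mean was over 16-fold for 8 of the 12, 0 of the 130, 2 of the 10 and 6 of the 13. Early Dunn arrays also had the lowest shares of all probes well above background (39.1% to 50.2%). The late Dunn count was not made without replicate 1. The genes beside Catsperz were Galnt12, Rgs2, Gm1673, Tescl with 2 probes, Clip3, Gda, Clmp, Tubg2 and Cpe, of which Gda lies on chromosome 19 too.

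The genes with the most similar profile over the 12 arrays were Galnt12, Fuom, Dclk2, Lox and Gypc. Their Pearson correlations with Catsperz were 0.987, 0.979, 0.975, 0.974 and 0.971, and 0.995, 0.977, 0.989, 0.976 and 0.988 without late Dunn replicate 1. These are descriptions over arrays that fall into 4 groups, with late Dunn far from the rest, and the points share slides and scaling. None of the 5 lies on chromosome 19.

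Galnt12, which encodes an enzyme of mucin-type glycosylation, was the closest. Its signal ran from 409 to 682 in early Dunn, from 4.68 to 23.8 in late Dunn, from 2828 to 3448 in early LM8 and from 2060 to 3058 in late LM8 arrays, and the late Dunn arrays were not well above background. Lox, the collagen crosslinking enzyme, had signals of 299 to 335 in early Dunn and 11.01 to 33.7 in late Dunn arrays, 1 of which was well above background. Fuom, a fucose mutarotase gene, stayed well above background in late Dunn cells (190 to 239, against 323 to 532 early). A profile like that of Catsperz thus included genes that kept signal in late Dunn cells and genes that did not.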

How the data were processed

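The 12 samples were hybridised to 1-colour Agilent mouse 4x44k v2 arrays. The authors deposited the output of Agilent Feature Extraction 10.7.3, in which the processed signal is the background-subtracted intensity of a spot, without scaling between arrays. The authors' deposited table across arrays held the same intensities, differing by at most 0.497%. The labels name an RNeasy kit for the RNA and the paper TriReagent. Each of 3 slides held 1 array of every group at the same place, so that place and group cannot be told apart.

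Control spots and outlier spots (5822 over 12 arrays) were left out, the log2 75th percentile of each array was subtracted, and 43020 spots were averaged into 39429 probes. Accessions were matched to the RefSeq annotation of GRCm38.p6 for names, chromosomes and gene order. The array annotation is of another build, so that gene coordinates are not given, while the upstream windows carry their own. For a gene with several probes, the one with the highest mean signal stands for it. Pairs of groups were fitted with limma 3.58.1 (R 4.3.3) on their 6 arrays, without a block, with Benjamini-Hochberg adjustment over all probes, and the interaction over 12 arrays. Calls were over 2-fold at an unadjusted p under 0.05, as in the methods, or an adjusted p under 0.05. Where all arrays of one group were not well above background, the fold is set against a floor and is not a strict bound. The floor is the larger of the measured value and the lowest signal well above background on each array. The replicate number of an array is its slide in the file headers. Arrays of the same number deviated together between early and late Dunn cells (correlations from 0.222 to 0.683, over 0.1 in 3 of 3 pairs), so that the numbers pair these arrays by the data. In the other comparisons the correlations were over 0.1 in 2 of 3 pairs each. They ran from -0.01 to 0.281 for passage in LM8 cells, and between lines from -0.067 to 0.206 early and from 0.047 to 0.337 late. With 3 pairs each, these do not settle whether those arrays are paired. The fits were tested on simulated data. Similar genes were the 5 with the highest correlation among probes well above background on at least 3 arrays.

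The members, lists and rules were chosen with earlier results of these data known. Alternatives were normexp background correction (offset 50, on median signals because mean signals were not in the files used), quantile normalization, no scaling, a floor on dim signals, only probes with signal, the slide as a block, 1 fit over 12 arrays, the methods' t-test and leaving out each array. For the gene lists, the block and leaving out late Dunn replicate 1 were chosen after seeing the data. Precision is limited by the number of arrays. Other packages were jsonlite 2.0.0, matplotlib 3.10.9 and version 1.17.8 of data.table.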

Additional observations from a re-analysis of the deposited data

How the results depend on the processing

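The loss of Catsperz signal in late Dunn cells kept its direction in every alternative, from -5.21 (normexp) to -8.81 (quantile normalization), and from -8.49 to -8.73 with 1 array left out. Counts of the 8 other CatSper probes over 2-fold at an unadjusted p under 0.05 moved more. For passage in Dunn cells (0) the count was 1 with the slide as a replicate block and 0 to 2 with 1 array left out, the 2 being without late Dunn replicate 1. For passage in LM8 cells (0) it was 1 without scaling and 0 to 1 with 1 array left out, the 1 being without early LM8 replicate 3. Between the lines at early passage (2) it was 7 with normexp, 6 with a floor on dim signals, 1 after quantile normalization, 1 in 1 fit over 12 arrays, 0 among probes with signal and 1 to 3 with 1 array left out. At late passage (0) it was 2 with normexp, 1 without scaling, 1 with the slide as a replicate block and 0 to 1 with 1 array left out, the 1 being without late Dunn replicate 2. For the neighbours (1) it was 0 with normexp, 0 without scaling and 0 to 2 with 1 array left out. The block uses the replicate number, which is the slide and pairs the arrays of early and late Dunn cells. With the block no probe of the other subunits passed the adjusted p, and the neighbours' count stayed at 1.

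Reversals were found only in differences that were not called by adjusted p. Without scaling, which moves the median of all probes from -0.33 to 0.63 in Dunn and from -0.20 to 0.17 in LM8 cells and, between lines, from -0.85 to 0.61 early and from -0.66 to 0.20 late, the Dunn passage difference was 0.27 for Catsper2, 0.63 for Catsperd, 0.15 for Rps6ka4, 0.067 for Prdx5, 0.42 for Trmt112, 0.030 for Bad, 0.52 for Plcb3 and 0.55 for Ppp1r14b. Catsper2 was also 0.12 for passage in LM8 cells and 0.60 and 0.45 between lines at early and late passage, and the interaction was -0.15 for Catsper2 and -0.20 for Catsperd. With normexp, Ccdc88b (-0.79) and Kcnk4 (-0.50) reversed in Dunn cells, Catsperd for passage in LM8 cells (-0.028) and between lines early (-1.03) and late (-0.15), and Catsper4 between lines late (-0.55). Quantile normalization reversed Kcnk4 in Dunn cells (-0.49) and Catsperd in LM8 cells (-0.017) and between lines early (-0.057), and the floor reversed Catsperd between lines early (-0.058) and Catsper4 late (-0.42). With 1 array left out, the Dunn passage difference ran from -0.94 to 1.25 for Esrra, from -0.20 to 1.13 for Ccdc88b and from -0.19 to 0.55 for Kcnk4, the LM8 passage difference from -0.12 to 0.31 for Catsperd, and the difference between lines from -0.20 to 0.17 for Catsperd early and from -0.26 to 0.49 for Catsper4 late. The cause was not tested. Signals near the background limit all members but Catsper2, Catsperz outside late Dunn cells and the brighter Catsperd probe, which had signal on 11 of 12 arrays.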
